A study of Homo sapiens with 3 samples.

Results

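The genes of homologous recombination and of the Fanconi anemia pathway were followed in Cal62 cells, a line of human thyroid cancer cells, after silencing of ADAR1, the enzyme that converts adenosine to inosine in double-stranded RNA, in a study of how ADAR1 affects expression and splicing. The 43 genes were chosen by name, as the rows whose Ensembl identifiers belong to listed genes of homologous recombination, of the Fanconi anemia pathway and of the ATM and ATR checkpoints, out of 58333 genes in the table. All cells were grown in the same medium with serum and transfected with the same lipid reagent. The 3 groups differed in the siRNA, which was a negative control (siControl) or 1 of 2 siRNAs against ADAR1 (siADAR1 #1 and siADAR1 #2). Poly(A)+ RNA was sequenced, with 2 libraries per group that the study's methods call biological replicates. The labels do not say how their cultures were separated, so p-values measure the spread between these libraries. A normalized count is the number of reads on a gene divided by the size factor of the library. A log2FC is a difference between group means of the deposited variance-stabilized log2 values, given with its standard error (SE) and with a p-value from limma adjusted over the 20247 genes that passed the filter on low values. A gene was called lower or higher when the adjusted p-value was under 0.05 and the log2FC was beyond 0.5, the thresholds that the study used. All 43 members passed the filter, a mean of at least 10 normalized counts over the 6 libraries, and the lowest read number of any member in any library was 112.

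Homologous recombination repairs a DNA double-strand break by copying the intact sister chromatid. The break is recognized and its ends are cut back by nucleases, the single-stranded DNA is prepared for strand exchange with the help of BRCA2 and a group of paralogs, and the joined molecules are later taken apart by helicases or nucleases. The Fanconi anemia pathway acts on crosslinks between the DNA strands, where a core complex with ubiquitin ligase activity marks the FANCD2-FANCI pair. The kinases ATM and ATR signal breaks and stalled forks to the cell cycle. Many of these genes are transcribed most strongly in S phase, and several long ones are known to depend on CDK12 and CDK13, kinases that act with cyclin K on RNA polymerase II. In bulk RNA, fewer cells of a type and less RNA per cell cannot be told apart.

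The reads on genes numbered 30114840 to 50029763 in a library. The targeted gene ADAR had 10906 and 11701 normalized counts under siControl, 1328 and 2246 under siADAR1 #1 and 1663 and 2928 under siADAR1 #2, and its log2FC was -2.71 (SE 0.30, adjusted p-value 0.00355) with siADAR1 #1 and -2.35 (SE 0.30, adjusted p-value 0.00153) with siADAR1 #2. Of the 8 markers of thyroid follicular cells, the transcription factor genes PAX8 and HHEX were the most expressed, NKX2-1 had 0 reads in every library, which allows up to 3 reads, and SLC5A5 did not pass the filter. With siADAR1 #1, the 5 thyroid markers tested had adjusted p-values of 0.0968 to 0.768, and with siADAR1 #2 PAX8 and FOXE1 were called lower. The thyroid list summed to 16292 and 18143 normalized counts under siControl, 12849 and 17806 under siADAR1 #1, and 4692 and 7475 under siADAR1 #2, most of it from PAX8, whose log2FC with siADAR1 #2 was -1.99 (SE 0.34, adjusted p-value 0.00411). The 4 epithelial markers summed to between 61622 and 103010 normalized counts in the 6 libraries, and KRT18 among them was called lower with siADAR1 #2, with a log2FC of -0.85 (SE 0.13, adjusted p-value 0.00276). The mesenchymal marker VIM had 105253 and 92977 normalized counts under siControl, 5464 and 17949 under siADAR1 #1 and 50998 and 66855 under siADAR1 #2, and its log2FC with siADAR1 #1 was -3.32 (SE 0.46, adjusted p-value 0.00535). The immune marker PTPRC and the endothelial marker PECAM1 together summed to at most 40.2 normalized counts in any library. Thus PAX8 was low in the libraries of siADAR1 #2 and VIM was low in those of siADAR1 #1, and the part of these differences in the results on the repair genes was not tested.

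With siADAR1 #1, 14 of the 43 members were called lower and 0 were called higher, while 11.0% of all genes tested were called lower and 6.39% higher. With siADAR1 #2, 28 members were called lower and 1 was called higher, while 16.0% of all genes were called lower and 11.6% higher. Both comparisons use the same siControl libraries. All genes tested include many of low level. Of the 14299 genes with a mean of at least 50 normalized counts, 15.8% were called lower with siADAR1 #1 and 21.8% with siADAR1 #2. Across 14274 coding genes, Spearman's rho of the siControl level and the log2FC was -0.13 and -0.26. The median log2FC of the members was -0.36 with siADAR1 #1 and -0.95 with siADAR1 #2, while the median of all genes tested was -0.03 and -0.02. Values below 0 were found for 39 members with siADAR1 #1 and for 38 with siADAR1 #2. Of the 20247 genes tested, 10585 had a value below 0 with siADAR1 #1 and 10324 with siADAR1 #2. By role, among groups of at least 2 genes, the median with siADAR1 #1 ran from -0.23 for the Fanconi core complex to -0.84 for end resection, and the median with siADAR1 #2 from -0.33 for the resolution nucleases to -1.11 for the strand-exchange paralogs and for the dissolution helicases. With siADAR1 #1, 25 members had a negative and 2 a positive log2FC with an unadjusted p-value under 0.05 in limma. Over all genes, 6720 of 20247 had such a p-value in either direction. For the members, voom on the recovered reads also called 14 lower and 0 higher. The plot of values by library shows that most members lay to the left of siControl with either siRNA, and farther to the left with siADAR1 #2.

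The order of the libraries was counted for each gene. The siADAR1 #1 libraries were both lower than either siControl library for 34 members and both higher for 3, and the groups overlapped for 6, while 33.4% of all genes tested lay below and 28.5% above. Those of siADAR1 #2 were lower for 37 members, higher for 5 and overlapped siControl for 1, while 35.6% of all genes lay below and 32.5% above. For 31 members, both siControl libraries exceeded all 4 siADAR1 libraries, as was also so for 17.0% of all genes tested. The reverse order was found for 0 members and for 12.0% of all genes.

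The count with siADAR1 #1 depended on single libraries. It was 0 without siControl replicate 1, 4 without siControl replicate 2 and 3 without siADAR1 #1 replicate 1, with the lone library of a group assumed to vary like the others. Over all genes, the share called lower was 0.766%, 3.96% and 4.39% in the same fits. The median log2FC of the members stayed between -0.45 and -0.31 when any library was left out. The count with siADAR1 #2 stayed between 24 and 28 when any library was left out, with 8.59% to 16.3% of all genes. The lower calls lost there included those of FANCL and ATRIP, each without either siControl library and without siADAR1 #2 replicate 1. That of ATRIP was also lost without siADAR1 #2 replicate 2. The others were those of BARD1 without siControl replicate 1 or siADAR1 #2 replicate 1, and of EME1 without siControl replicate 1. ATM, which was called higher with siADAR1 #2, lost its call without either library of siControl or of siADAR1 #2. Without a trend of the variance with the level, 3 members, XRCC3, RAD50 and WRN, were called lower with siADAR1 #1, as were 4.42% of all genes. Over the 15 alternatives, the call with siADAR1 #1 was lost in 9 for EXO1, FANCA and RBBP8, in 8 for FANCM, in 1 for XRCC3, RAD50 and WRN, and in 4 for each of the other 7 members called. When the libraries were centred on their medians, the median of all genes with siADAR1 #1 moved from -0.03 to 0.11, the calls over all genes moved from 2225 lower and 1293 higher to 1723 lower and 1938 higher, or 1827 lower and 1686 higher after quantile normalization, and the median of the members was -0.22.

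**Figure D1:**
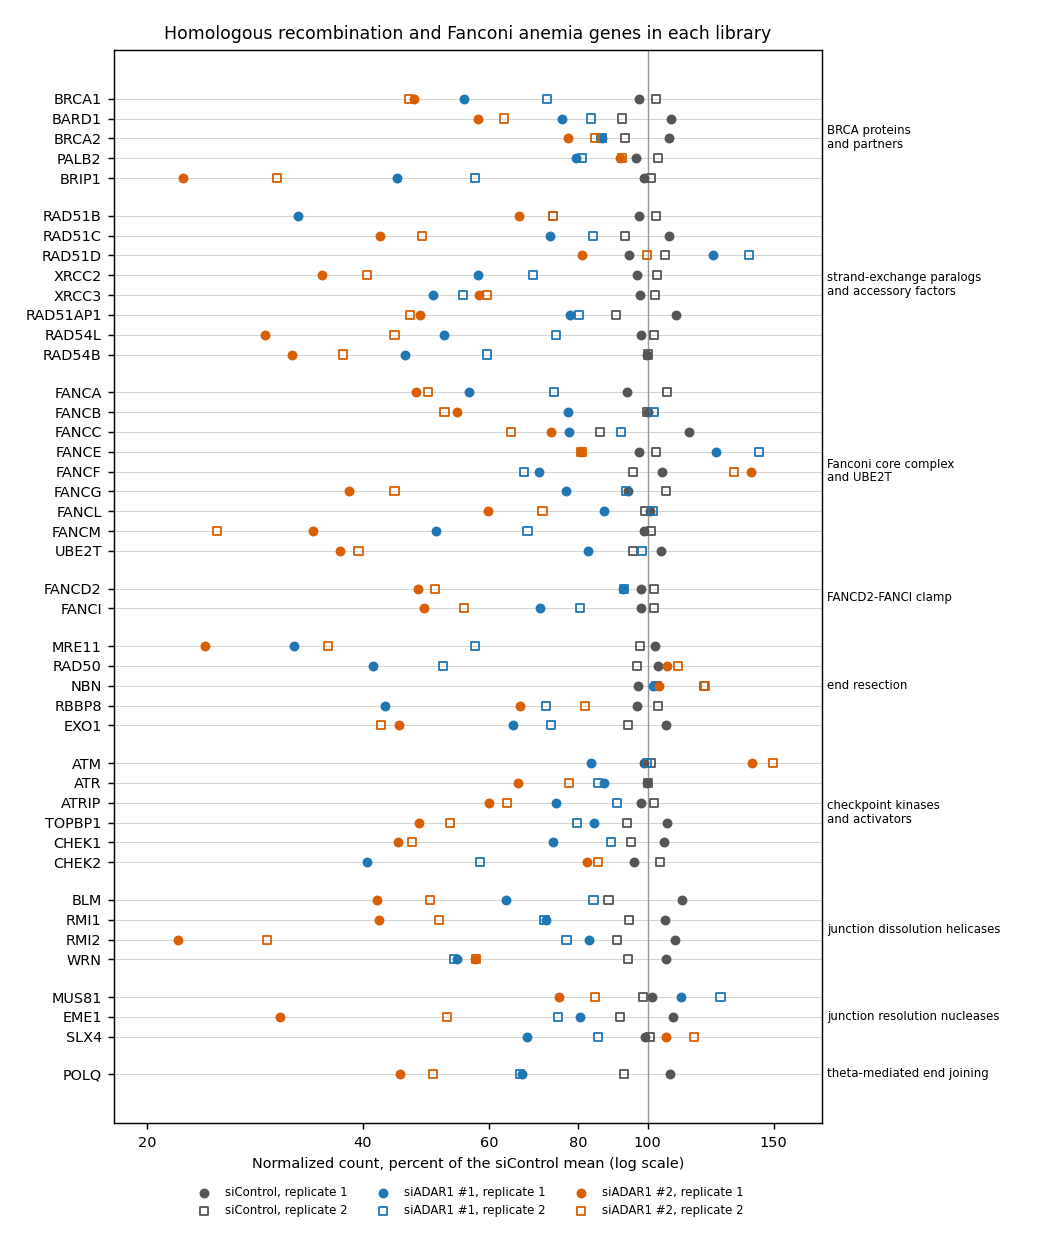
Normalized count of each member in each of the 6 libraries, as a percent of the mean of the 2 siControl libraries on a log scale, with the genes grouped by role. Filled circles are replicate 1 and open squares replicate 2; all 4 siADAR1 libraries lie to the left of both siControl libraries for 31 of the 43 genes.

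**Figure D2:**
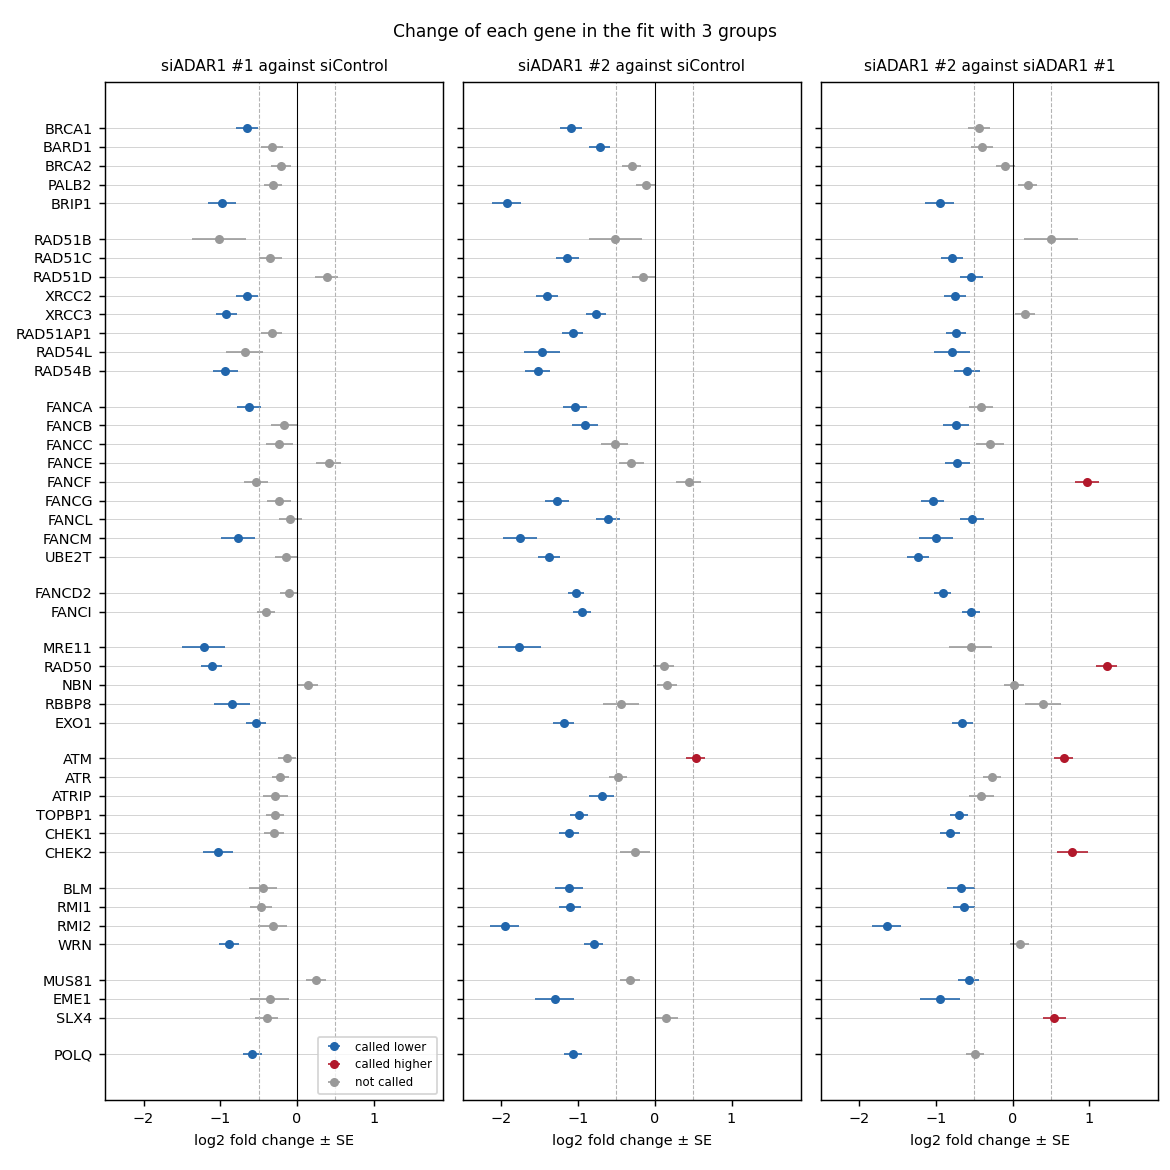
log2 fold change of each member with its SE in the 3 comparisons of the fit with 3 groups, with dashed lines at the thresholds of 0.5 in either direction. Blue points were called lower, red points higher and gray points not called: 14 lower with siADAR1 #1, 28 lower and 1 higher with siADAR1 #2, and 23 lower and 5 higher between the siRNAs.

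With the 4 siADAR1 libraries as 1 group against siControl, 0 members and 0% of all genes tested were called in either direction by limma. The targeted gene ADAR was not called either, with a log2FC of -2.53 (SE 0.32, adjusted p-value 0.0881), the smallest adjusted p-value of all genes. In this fit, differences between the siRNAs count as spread within the group. The median log2FC of the members in this comparison was -0.70. Of the members, 17 had a negative log2FC with an unadjusted p-value under 0.05 and 0 had a positive one. The smallest adjusted p-value of a member was 0.135. Over all genes, 2869 of 20247 had an unadjusted p-value under 0.05 in either direction, and voom on the recovered reads called 1 gene lower, which was no member. When each siRNA had its own group and the mean of the changes was tested, 27 members were called lower, with 11.5% of all genes called lower and 6.27% higher.

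The siRNAs were also compared with each other. Against siADAR1 #1, 23 members were called lower with siADAR1 #2 and 5 were called higher, while 16.5% of all genes were called lower and 17.3% higher, and the median log2FC was -0.54 for the members and 0.01 for all genes. The count of lower members was 13 without siADAR1 #2 replicate 1 and 15 without siADAR1 #1 replicate 2, when 11.9% and 13.8% of all genes were called lower, and the count of higher members was 3 without siADAR1 #1 replicate 1 or either library of siADAR1 #2, when 13.0%, 11.2% and 12.9% of all genes were called higher. The members called higher were FANCF, RAD50, ATM, CHEK2 and SLX4.

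The starts of 38 members were compared with short sequence words, since most members had a log2FC below 0 with each siRNA. No promoter is given for FANCI, RMI2, RAD54B, NBN and WRN. The promoter entries came from RefSeq (GRCh38.p14) and cover 300 bases, from 250 before to 50 after the start of the gene. E2F-type words, which are known from promoters of genes of S phase, were searched on both strands as TTTCCCGC, TTTCGCGC, TTTGCCGC or TTTGGCGC. Such a word was found in 6 of the 38 promoters (15.8%), in 5.08% of 12625 promoters of the genes tested and in 3.33% of all 27305 promoters. The word CCAAT was found in 44.7% of the member promoters and in 36.1% of those of the genes tested, and in 35.7% of all promoters. The word TTTGAA, part of the element of many genes of mitosis, was found in 13.2% and 10.1%, and in 15.4% of all promoters. With siADAR1 #2, 5 of the 6 members with an E2F-type word and 19 of the 32 without one were called lower, as were 27.9% of all tested genes that have a promoter entry with a word and 19.3% of those without one. With siADAR1 #1 these were 3 of 6 and 9 of 32, and 19.3% and 13.5% of the tested genes. FANCC was the sixth member with a word and was not called. A word is a match of letters only, and whether a factor binds there was not measured.

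The promoters of the 5 members with an E2F-type word that were called lower with siADAR1 #2 are shown. They let a reader see where the word lies relative to the start. Of these, FANCD2 and TOPBP1 were not called with siADAR1 #1. The promoters shown were thus chosen by the call. The promoter of FANCC, which held 2 such words and was not called with either siRNA, is not shown. Each stretch of 230 bases runs 5′ to 3′ on the strand of the gene and holds the 200 bases before the start and the 30 after it, and capitals mark the E2F-type word, in reverse complement where it reads GCGGGAAA, GCGGCAAA or GCGCGAAA. XRCC2 lies at chr7:152676112-152676341, reverse strand, FANCA at chr16:89816618-89816847, reverse strand, FANCD2 at chr3:10026237-10026466, forward strand, EXO1 at chr1:241848004-241848233, forward strand and TOPBP1 at chr3:133661912-133662141, reverse strand.
XRCC2: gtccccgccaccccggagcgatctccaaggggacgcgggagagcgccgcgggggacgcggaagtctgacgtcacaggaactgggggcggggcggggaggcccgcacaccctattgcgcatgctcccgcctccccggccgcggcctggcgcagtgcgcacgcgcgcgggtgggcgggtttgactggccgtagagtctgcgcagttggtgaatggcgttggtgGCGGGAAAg
FANCA: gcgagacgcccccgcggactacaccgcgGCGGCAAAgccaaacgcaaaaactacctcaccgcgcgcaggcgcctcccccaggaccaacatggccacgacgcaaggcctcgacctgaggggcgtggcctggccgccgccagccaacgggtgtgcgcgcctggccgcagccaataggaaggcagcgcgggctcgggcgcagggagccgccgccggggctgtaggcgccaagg
FANCD2: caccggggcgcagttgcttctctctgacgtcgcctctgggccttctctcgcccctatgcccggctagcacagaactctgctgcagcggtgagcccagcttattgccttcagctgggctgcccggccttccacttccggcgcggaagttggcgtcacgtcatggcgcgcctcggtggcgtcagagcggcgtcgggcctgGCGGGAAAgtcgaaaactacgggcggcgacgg
EXO1: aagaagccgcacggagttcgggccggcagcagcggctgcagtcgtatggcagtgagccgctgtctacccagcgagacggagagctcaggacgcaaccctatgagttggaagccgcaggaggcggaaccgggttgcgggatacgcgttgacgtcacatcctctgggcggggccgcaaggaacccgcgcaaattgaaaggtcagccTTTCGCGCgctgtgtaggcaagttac
TOPBP1: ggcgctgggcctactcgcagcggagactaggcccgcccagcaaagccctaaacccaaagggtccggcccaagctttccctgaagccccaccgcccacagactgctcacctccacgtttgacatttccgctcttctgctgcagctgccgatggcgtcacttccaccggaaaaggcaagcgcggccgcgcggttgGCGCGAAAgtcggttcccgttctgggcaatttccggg

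The counts by role, here and below, stand beside the shares over all genes tested. These were 11.0% lower and 6.39% higher with siADAR1 #1, and 16.0% lower and 11.6% higher with siADAR1 #2. Between the siRNAs they were 16.5% lower and 17.3% higher. The first role is that of the BRCA proteins and their partners, of which 2 of 5 were called lower with siADAR1 #1 and 3 of 5 with siADAR1 #2. BRCA1 is a ubiquitin ligase that acts with BARD1 and favors the resection of breaks (chromosome 17, 43044295 to 43170245, reverse strand, GRCh38). It had 6025 and 6359 normalized counts under siControl, 3431 and 4486 under siADAR1 #1 and 2918 and 2878 under siADAR1 #2. All 4 siADAR1 libraries lay below siControl, and those of siADAR1 #2 were lowest. The log2FC was -0.66 (SE 0.14, adjusted p-value 0.0201) with siADAR1 #1 and -1.09 (SE 0.14, adjusted p-value 0.00164) with siADAR1 #2. The difference between the siRNAs was -0.44 (adjusted p-value 0.0473) on the log2 scale, which did not pass the threshold on size. BARD1 had 1877 and 1604 normalized counts under siControl, 1323 and 1453 under siADAR1 #1 and 1009 and 1097 under siADAR1 #2. Its libraries followed the same order, and its log2FC was -0.32 (adjusted p-value 0.157) with siADAR1 #1 and -0.72 (SE 0.14, adjusted p-value 0.00773) with siADAR1 #2.

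BRIP1, the helicase known as FANCJ that binds BRCA1, had the lowest log2FC of this group with either siRNA. It lies on chromosome 17, 61679139 to 61863559, reverse strand, and had 3489 and 3577 normalized counts under siControl, 1579 and 2026 under siADAR1 #1 and 794 and 1074 under siADAR1 #2. The groups did not overlap and were ordered from siControl to siADAR1 #1 to siADAR1 #2, at 51.0% and 26.4% of siControl. The log2FC was -0.98 (SE 0.18, adjusted p-value 0.0127) with siADAR1 #1, -1.93 (SE 0.18, adjusted p-value 0.00058) with siADAR1 #2 and -0.95 (SE 0.18, adjusted p-value 0.00582) between the siRNAs. By contrast, BRCA2, which prepares single-stranded DNA for strand exchange, and PALB2, which links BRCA1 to BRCA2, were not called in any of these comparisons. BRCA2 had 3119.9 and 2710.1 normalized counts under siControl, 2519 and 2514 under siADAR1 #1 and 2253 and 2462 under siADAR1 #2, all siADAR1 libraries being below siControl. Its log2FC was -0.21 (SE 0.13, adjusted p-value 0.292) with siADAR1 #1 and -0.30 (SE 0.13, adjusted p-value 0.107) with siADAR1 #2. PALB2 had 1819 and 1952 under siControl, 1497 and 1526 under siADAR1 #1 and 1727 and 1737 under siADAR1 #2, and its log2FC was -0.32 (adjusted p-value 0.107) and -0.12 (adjusted p-value 0.489).

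Of the 8 strand-exchange paralogs and accessory factors, 3 were called lower with siADAR1 #1 and 6 with siADAR1 #2. Over all genes tested, 11.0% and 16.0% were called lower. The paralogs form small complexes that act in strand exchange. XRCC2, a paralog whose promoter is shown above, had 3369 and 3592 normalized counts under siControl, 2017 and 2411 under siADAR1 #1 and 1222 and 1411 under siADAR1 #2. The siADAR1 libraries lay below siControl without overlap, and the log2FC was -0.66 (SE 0.14, adjusted p-value 0.0192) with siADAR1 #1 and -1.40 (SE 0.14, adjusted p-value 0.000676) with siADAR1 #2. XRCC3, which pairs with RAD51C, had 1518 and 1589 normalized counts under siControl, 779.9 and 859 under siADAR1 #1 and 903 and 926 under siADAR1 #2. Its siADAR1 groups lay near each other, with a log2FC of -0.92 (SE 0.13, adjusted p-value 0.00581) and -0.76 (SE 0.13, adjusted p-value 0.00466) and a difference between the siRNAs of 0.16 (adjusted p-value 0.39). Its exons share 34.2% of their bases with KLC1 on the opposite strand. KLC1 had 5004 and 5746 under siControl, 9297 and 8195 under siADAR1 #1 and 8423 and 7235 under siADAR1 #2, and whether the counting used strand is not given in the sources used here.

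RAD51C, which belongs to both paralog complexes, had 2152 and 1868 normalized counts under siControl, 1469 and 1684 under siADAR1 #1 and 849 and 973 under siADAR1 #2. The groups did not overlap, and the log2FC was -1.14 (SE 0.15, adjusted p-value 0.00156) with siADAR1 #2, -0.35 (adjusted p-value 0.147) with siADAR1 #1 and -0.79 (SE 0.15, adjusted p-value 0.00512) between the siRNAs. RAD51D, which bridges RAD51C and XRCC2, had 1627 and 1824 normalized counts under siControl, 2127 and 2392 under siADAR1 #1 and 1398 and 1721 under siADAR1 #2. Both siADAR1 #1 libraries lay above siControl, and one siADAR1 #2 library lay within the siControl values. The log2FC was 0.39 (SE 0.15, adjusted p-value 0.117) with siADAR1 #1 and -0.15 (SE 0.15, adjusted p-value 0.497) with siADAR1 #2, neither of them called, while the difference between the siRNAs was -0.54 (SE 0.15, adjusted p-value 0.0256). RAD51B, the paralog with the longest span, had the widest SE of the members, with 314 and 330.5 normalized counts under siControl, 105 and 237 under siADAR1 #1 and 213 and 237 under siADAR1 #2. The siADAR1 #1 libraries differed most from each other, and its log2FC was -1.02 (SE 0.35, adjusted p-value 0.0847) with siADAR1 #1 and -0.51 (SE 0.35, adjusted p-value 0.315) with siADAR1 #2. When the replicate number was a block, the adjusted p-value with siADAR1 #1 was 0.0396 (0.00707 to 0.301 over all alternatives).

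The accessory factors were all called with siADAR1 #2. RAD54L and RAD54B are motor proteins that move along DNA during strand exchange. RAD54B had 2207 and 2218 normalized counts under siControl, 1014 and 1321 under siADAR1 #1 and 704 and 832 under siADAR1 #2. The groups were ordered as for BRIP1, and the log2FC was -0.93 (SE 0.17, adjusted p-value 0.0109) with siADAR1 #1 and -1.53 (SE 0.17, adjusted p-value 0.000887) with siADAR1 #2. RAD54L had 1899 and 1982 normalized counts under siControl, 1008 and 1443 under siADAR1 #1 and 567 and 859.8 under siADAR1 #2. Its log2FC was -1.47 (SE 0.24, adjusted p-value 0.00351) with siADAR1 #2 and -0.68 (SE 0.24, adjusted p-value 0.0865) with siADAR1 #1, where the replicate number as a block gave an adjusted p-value of 0.0227 (0.0227 to 0.366 over all alternatives). Its exons share 26.2% of their bases with LRRC41 on the opposite strand, which had 2953 and 2751 under siControl, 3725 and 3765 under siADAR1 #1 and 1933 and 2251 under siADAR1 #2. RAD51AP1, which helps to pair DNA strands, had 3661 and 3014 normalized counts under siControl, 2603 and 2673 under siADAR1 #1 and 1603 and 1556 under siADAR1 #2, with a log2FC of -0.33 (adjusted p-value 0.125) with siADAR1 #1 and -1.07 (SE 0.13, adjusted p-value 0.0013) with siADAR1 #2.

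Of the 9 genes of the Fanconi core complex and its ubiquitin conjugase UBE2T, 2 were called lower with siADAR1 #1 and 6 with siADAR1 #2. FANCM, the translocase that anchors the complex on DNA, was the member with the lowest level per kb and had 695 and 709.9 normalized counts under siControl, 355 and 477 under siADAR1 #1 and 239 and 176 under siADAR1 #2. The groups did not overlap, and siADAR1 #2 was at 29.5% of siControl. Its log2FC was -0.77 (SE 0.22, adjusted p-value 0.0493) with siADAR1 #1 and -1.76 (SE 0.22, adjusted p-value 0.00137) with siADAR1 #2. FANCA, a scaffold of the complex, had 3475 and 3942 normalized counts under siControl, 2087 and 2748 under siADAR1 #1 and 1761 and 1828 under siADAR1 #2. Its log2FC was -0.63 (SE 0.16, adjusted p-value 0.031) and -1.04 (SE 0.16, adjusted p-value 0.00263), and its exons share 27.4% of their bases with ZNF276 on the opposite strand, which had 747 and 737 under siControl, 1084 and 1007 under siADAR1 #1 and 1072 and 981 under siADAR1 #2. The calls with siADAR1 #1 of both genes were lost in several alternatives, over which the adjusted p-values were 0.0314 to 0.229 for FANCM and 0.0129 to 0.159 for FANCA.

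UBE2T and FANCG had levels close to siControl with siADAR1 #1 and low levels with siADAR1 #2. UBE2T, which passes ubiquitin to FANCD2, had 2012 and 1840 normalized counts under siControl, 1588 and 1894 under siADAR1 #1 and 716 and 760.2 under siADAR1 #2. The siADAR1 #1 libraries overlapped siControl and those of siADAR1 #2 lay far below, with a log2FC of -0.15 (adjusted p-value 0.516) and -1.38 (SE 0.14, adjusted p-value 0.000727). The difference between the siRNAs was -1.23 (SE 0.14, adjusted p-value 0.000738). FANCG, which stabilizes FANCA, had 2549 and 2879 normalized counts under siControl, 2089 and 2532 under siADAR1 #1 and 1038 and 1203 under siADAR1 #2, with a log2FC of -0.24 (adjusted p-value 0.325) with siADAR1 #1, -1.28 (SE 0.15, adjusted p-value 0.00114) with siADAR1 #2 and -1.04 (adjusted p-value 0.00177) between the siRNAs. FANCB, a partner of the ligase subunit FANCL, had 1049.8 and 1044 normalized counts under siControl, 809.8 and 1069 under siADAR1 #1 and 567 and 545 under siADAR1 #2. Its log2FC was -0.17 (adjusted p-value 0.533) with siADAR1 #1 and -0.91 (SE 0.17, adjusted p-value 0.00604) with siADAR1 #2. FANCL had 1239 and 1217 normalized counts under siControl, 1069 and 1249.9 under siADAR1 #1 and 735 and 876 under siADAR1 #2, and a log2FC of -0.09 (adjusted p-value 0.74) and -0.61 (SE 0.15, adjusted p-value 0.0204). Its exons share 27.3% of their bases with VRK2 on the opposite strand, whose log2FC with siADAR1 #2 was -1.38 (adjusted p-value 0.0011), and its own call was lost in 6 of the alternatives, with adjusted p-values of 0.0138 to 0.129 over all of them.

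FANCC, FANCE and FANCF were not called with either siRNA, and FANCF and FANCE differed between the siRNAs in opposite ways. FANCF, an adaptor of the complex and the member with the shortest span (chromosome 11, 22622533 to 22625823, reverse strand), had 484 and 441 normalized counts under siControl, 326 and 310.3 under siADAR1 #1 and 645 and 609 under siADAR1 #2. Both siADAR1 #1 libraries lay below siControl and both siADAR1 #2 libraries above it. The log2FC was -0.53 (SE 0.16, adjusted p-value 0.053) with siADAR1 #1, where the replicate block gave an adjusted p-value of 0.0488 (0.0452 to 0.214 over all alternatives), 0.44 (SE 0.16, adjusted p-value 0.0714) with siADAR1 #2, and 0.97 (SE 0.16, adjusted p-value 0.00272) between the siRNAs. FANCE, which binds FANCD2, had 433 and 458 normalized counts under siControl, 555 and 637 under siADAR1 #1 and 359 and 360.3 under siADAR1 #2. Here the siADAR1 #1 libraries lay above and the siADAR1 #2 libraries below siControl, with a log2FC of 0.41 (SE 0.16, adjusted p-value 0.117), -0.31 (SE 0.16, adjusted p-value 0.193) and, between the siRNAs, -0.72 (SE 0.16, adjusted p-value 0.0104). FANCC had 1900.3 and 1427 under siControl, 1291 and 1527 under siADAR1 #1 and 1220.1 and 1074 under siADAR1 #2, with a log2FC of -0.23 (adjusted p-value 0.416) and -0.52 (adjusted p-value 0.0608). Its siADAR1 #1 libraries overlapped siControl, and those of siADAR1 #2 lay below it. The ratio of FANCF to FANCA normalized counts was 0.139 and 0.112 under siControl, 0.156 and 0.113 under siADAR1 #1 and 0.366 and 0.333 under siADAR1 #2, so that it was highest in both siADAR1 #2 libraries.

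The FANCD2-FANCI clamp, the pair that receives ubiquitin, was called lower for both genes with siADAR1 #2 and for neither with siADAR1 #1. FANCD2 had 5089.9 and 5304 normalized counts under siControl, 4809 and 4811 under siADAR1 #1 and 2487 and 2620.5 under siADAR1 #2. Its siADAR1 #1 libraries lay just below siControl, with a log2FC of -0.11 (SE 0.11, adjusted p-value 0.516), while siADAR1 #2 gave -1.02 (SE 0.11, adjusted p-value 0.000736). FANCI had the highest level per kb of all members and had 16180 and 16849 normalized counts under siControl, 11690.3 and 13285 under siADAR1 #1 and 8042 and 9139 under siADAR1 #2. Its log2FC of -0.41 (SE 0.12, adjusted p-value 0.0482) with siADAR1 #1 missed the threshold on size, and it was -0.95 (SE 0.12, adjusted p-value 0.00129) with siADAR1 #2. The difference between the siRNAs was -0.91 (adjusted p-value 0.000746) for FANCD2 and -0.54 (adjusted p-value 0.00918) for FANCI.

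End resection was the role with more members called with siADAR1 #1 (4 of 5) than with siADAR1 #2 (2 of 5), and the 3 subunits of the MRE11-RAD50-NBN complex, which binds and trims broken ends, gave unlike values. MRE11, the nuclease (chromosome 11, 94415570 to 94493885, reverse strand), had 5629 and 5355 normalized counts under siControl, 1760 and 3157 under siADAR1 #1 and 1324 and 1967 under siADAR1 #2. All siADAR1 libraries lay below siControl, with a wide gap between the replicates of siADAR1 #1. Its mean was 5492 ± 194 (SD, n = 2) in siControl, 2458 ± 988 (SD, n = 2) in siADAR1 #1 and 1646 ± 454 (SD, n = 2) in siADAR1 #2. The log2FC was -1.22 (SE 0.28, adjusted p-value 0.0241) with siADAR1 #1 and -1.76 (SE 0.28, adjusted p-value 0.00339) with siADAR1 #2. Without siADAR1 #1 replicate 1 it was -0.80 with that siRNA, with adjusted p-values of 0.00594 to 0.139 over all alternatives. RAD50, the ATPase that bridges the ends (chromosome 5, 132556019 to 132646349, forward strand), had 4304 and 4029.9 normalized counts under siControl, 1723 and 2159 under siADAR1 #1 and 4431 and 4596 under siADAR1 #2. It was low with siADAR1 #1 and slightly above siControl with siADAR1 #2. The log2FC was -1.11 (SE 0.14, adjusted p-value 0.00405), 0.12 (SE 0.14, adjusted p-value 0.572) and, between the siRNAs, 1.23 (SE 0.14, adjusted p-value 0.000679).

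NBN, the subunit that recruits ATM, had 7328 and 7768 normalized counts under siControl, 7691 and 9037 under siADAR1 #1 and 7839 and 9089 under siADAR1 #2. The siADAR1 #1 libraries overlapped siControl and both siADAR1 #2 libraries lay above it, and its log2FC was 0.14 (SE 0.13, adjusted p-value 0.483) with siADAR1 #1 and 0.16 (SE 0.13, adjusted p-value 0.387) with siADAR1 #2. The ratio of MRE11 to NBN normalized counts was 0.768 and 0.689 under siControl, 0.229 and 0.349 under siADAR1 #1 and 0.169 and 0.216 under siADAR1 #2. The ratio of RAD50 to NBN was 0.587 and 0.519 under siControl, 0.224 and 0.239 under siADAR1 #1 and 0.565 and 0.506 under siADAR1 #2, so that only the siADAR1 #1 libraries stood apart. The ratio of MRE11 to RAD50 was 1.31 and 1.33 under siControl, 1.02 and 1.46 under siADAR1 #1 and 0.299 and 0.428 under siADAR1 #2, where the siADAR1 #2 libraries stood apart. These ratios compare libraries and not the amounts of the subunits, since they are not per length. Of the exonic bases of RAD50, 91.0% are also annotated, on the same strand, to the overlapping gene ENSG00000283782, which had 267 and 262 under siControl, 397 and 209 under siADAR1 #1 and 523 and 494 under siADAR1 #2, so the counting could have split reads between these genes.

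**Figure D3:**
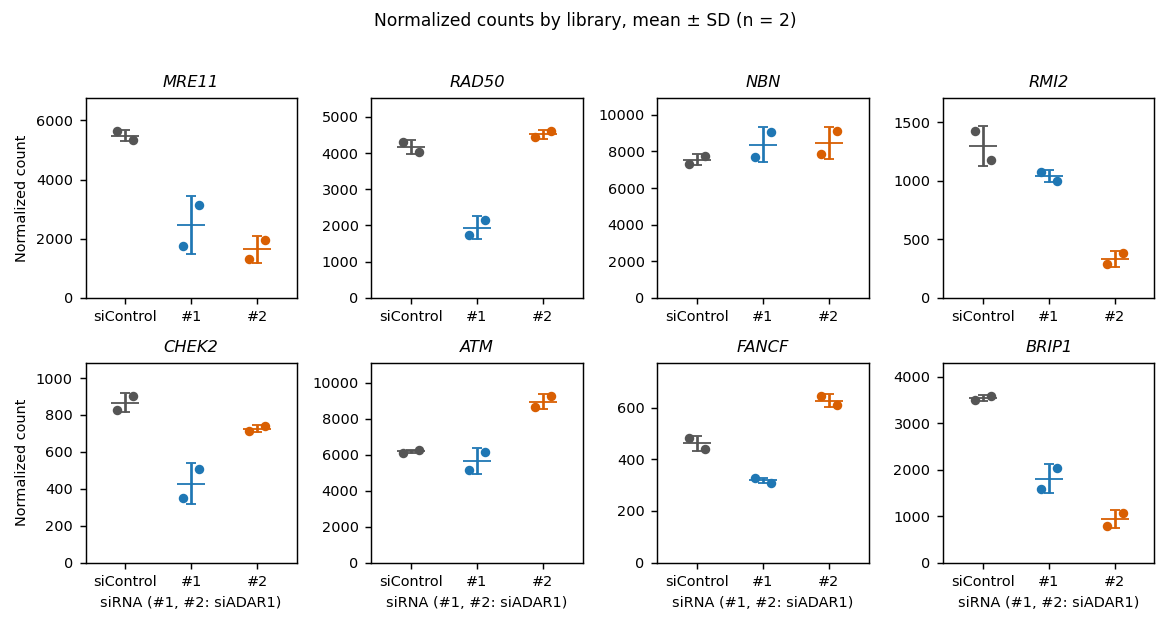
Normalized counts of 8 members in each library (points), with the mean and SD of the 2 libraries of each group (bars), on axes that start at 0. MRE11 and BRIP1 are below siControl with both siRNAs, RAD50 and CHEK2 are lowest with siADAR1 #1, RMI2 with siADAR1 #2, the siADAR1 #1 libraries of NBN overlap siControl, and ATM and FANCF are highest with siADAR1 #2.

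RBBP8 and EXO1 complete the resection genes. RBBP8, which encodes CtIP, the partner that starts resection, had 3561 and 3809 normalized counts under siControl, 1584 and 2661 under siADAR1 #1 and 2443 and 3016 under siADAR1 #2. The replicates of siADAR1 #1 were far apart, and the log2FC was -0.84 (SE 0.23, adjusted p-value 0.0439) with siADAR1 #1 and -0.44 (SE 0.23, adjusted p-value 0.2) with siADAR1 #2. Without siADAR1 #1 replicate 1 the log2FC with that siRNA was -0.47, and over all alternatives the adjusted p-values were 0.00629 to 0.187. EXO1, the exonuclease of long resection, had 2635 and 2332 normalized counts under siControl, 1608 and 1819 under siADAR1 #1 and 1118 and 1055 under siADAR1 #2. Its groups did not overlap, and its log2FC was -0.53 (SE 0.13, adjusted p-value 0.0315) with siADAR1 #1 and -1.19 (SE 0.13, adjusted p-value 0.000966) with siADAR1 #2. The adjusted p-values with siADAR1 #1 were 0.0226 to 0.169 over all alternatives.

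Among the 6 checkpoint kinases and activators, CHEK2 was the one called lower with siADAR1 #1, while 3 were called lower and ATM was called higher with siADAR1 #2. The share called lower with siADAR1 #1 was 16.7%, near the 11.0% of all genes tested. ATM, the kinase that answers breaks (chromosome 11, 108223044 to 108369102, forward strand), had 6104 and 6240.2 normalized counts under siControl, 5145 and 6153 under siADAR1 #1 and 8635 and 9244 under siADAR1 #2. The siADAR1 #1 libraries overlapped siControl, and both siADAR1 #2 libraries lay above all others. Its log2FC was -0.13 (SE 0.12, adjusted p-value 0.494) with siADAR1 #1, 0.53 (SE 0.12, adjusted p-value 0.014) with siADAR1 #2 and 0.67 (SE 0.12, adjusted p-value 0.00443) between the siRNAs. The call with siADAR1 #2 was lost in 5 alternatives, including each one that left out a library of siControl or siADAR1 #2, with adjusted p-values of 0.00485 to 0.0789 over all alternatives. CHEK2, the kinase that ATM activates, had 829 and 902 normalized counts under siControl, 351 and 505 under siADAR1 #1 and 712 and 738 under siADAR1 #2. It was lowest with siADAR1 #1, with a log2FC of -1.03 (SE 0.20, adjusted p-value 0.013), -0.25 (adjusted p-value 0.378) with siADAR1 #2 and 0.78 (SE 0.20, adjusted p-value 0.0171) between the siRNAs.

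In the ATR branch, CHEK1, TOPBP1 and ATRIP were called lower with siADAR1 #2. ATR, the kinase of stalled forks, had 7524 and 7558 normalized counts under siControl, 6560.1 and 6425 under siADAR1 #1 and 4970.1 and 5856 under siADAR1 #2. Its log2FC of -0.48 (SE 0.12, adjusted p-value 0.0174) with siADAR1 #2 missed the threshold on size, and it was -0.22 (adjusted p-value 0.241) with siADAR1 #1. CHEK1, its effector kinase, had 6210.4 and 5590.5 normalized counts under siControl, 4354 and 5238 under siADAR1 #1 and 2639.8 and 2768 under siADAR1 #2. TOPBP1, its activator, had 12052 and 10585 normalized counts under siControl, 9513 and 9014 under siADAR1 #1 and 5434 and 5987 under siADAR1 #2. For both, the siADAR1 #2 libraries lay far below the rest, with a log2FC of -1.12 (SE 0.13, adjusted p-value 0.00106) for CHEK1 and -0.99 (SE 0.12, adjusted p-value 0.00109) for TOPBP1. Under siADAR1 #1, CHEK1 had -0.30 (adjusted p-value 0.151) and TOPBP1 -0.29 (adjusted p-value 0.128). ATRIP, the partner of ATR, had 712 and 744 under siControl, 542 and 659 under siADAR1 #1 and 438 and 463 under siADAR1 #2, with a log2FC of -0.28 (adjusted p-value 0.272) with siADAR1 #1 and -0.69 (SE 0.16, adjusted p-value 0.0159) with siADAR1 #2, and its exons share 31.6% of their bases with TREX1 on the same strand, which had at most 49.8 normalized counts in any library.

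All 4 junction dissolution helicases and their partners were called lower with siADAR1 #2, and WRN was called lower with siADAR1 #1. BLM unwinds joined DNA molecules together with TOP3A, RMI1 and RMI2. BLM had 5063 and 3993 normalized counts under siControl, 2868 and 3805 under siADAR1 #1 and 1899 and 2249.9 under siADAR1 #2, with a log2FC of -0.44 (adjusted p-value 0.137) with siADAR1 #1 and -1.12 (SE 0.18, adjusted p-value 0.00371) with siADAR1 #2. RMI1 had 2323 and 2074 normalized counts under siControl, 1588 and 1578 under siADAR1 #1 and 926 and 1125 under siADAR1 #2. Its log2FC was -0.47 (adjusted p-value 0.0591) and -1.10 (SE 0.14, adjusted p-value 0.00159). RMI2 (chromosome 16, 11249619 to 11381662, forward strand) had the lowest log2FC of the members with siADAR1 #2, closer than its SE to that of BRIP1. It had 1421 and 1178 normalized counts under siControl, 1077 and 1001 under siADAR1 #1 and 287 and 382 under siADAR1 #2. The siADAR1 #2 libraries were at 25.7% of siControl on average, and the siADAR1 #1 libraries were also below siControl. The log2FC was -0.32 (SE 0.19, adjusted p-value 0.283) with siADAR1 #1, -1.96 (SE 0.19, adjusted p-value 0.000572) with siADAR1 #2 and -1.64 (SE 0.19, adjusted p-value 0.000696) between the siRNAs. The ratio of RMI2 to RMI1 was 0.612 and 0.568 under siControl, 0.678 and 0.635 under siADAR1 #1 and 0.31 and 0.34 under siADAR1 #2, so that the siADAR1 #2 libraries stood apart. WRN, the helicase of Werner syndrome, had 2416 and 2143 normalized counts under siControl, 1234 and 1225 under siADAR1 #1 and 1309 and 1311 under siADAR1 #2. The siADAR1 groups lay near each other and well below siControl, with a log2FC of -0.89 (SE 0.13, adjusted p-value 0.00557) and -0.80 (SE 0.13, adjusted p-value 0.00321) and a difference between the siRNAs of 0.09 (adjusted p-value 0.615).

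Of the 3 junction resolution nucleases, EME1 was called lower with siADAR1 #2 against siControl, and all 3 were called between the siRNAs. EME1, the partner of the nuclease MUS81, had 779 and 657 normalized counts under siControl, 577 and 538 under siADAR1 #1 and 220 and 376 under siADAR1 #2. Its log2FC was -0.36 (adjusted p-value 0.375) with siADAR1 #1 and -1.31 (SE 0.26, adjusted p-value 0.0077) with siADAR1 #2, and its exons share 23.2% of their bases with LRRC59 on the opposite strand, a gene with a mean of 14402 normalized counts. MUS81 had 1640 and 1589 normalized counts under siControl, 1798 and 2041 under siADAR1 #1 and 1214 and 1365 under siADAR1 #2. The siADAR1 #1 libraries lay above siControl and those of siADAR1 #2 below it, with a log2FC of 0.25 (SE 0.13, adjusted p-value 0.246), -0.33 (SE 0.13, adjusted p-value 0.107) and, between the siRNAs, -0.57 (SE 0.13, adjusted p-value 0.0127). Its exons share 7.02% of their bases with the abundant gene CFL1 on the opposite strand, which had 44595 and 41505 under siControl, 9929 and 15537 under siADAR1 #1 and 28877 and 30034 under siADAR1 #2. The ratio of EME1 to MUS81 was 0.475 and 0.413 under siControl, 0.321 and 0.263 under siADAR1 #1 and 0.181 and 0.276 under siADAR1 #2. SLX4, the scaffold that holds several nucleases, had 1256 and 1276 normalized counts under siControl, 858 and 1078 under siADAR1 #1 and 1345 and 1468 under siADAR1 #2. Its siADAR1 #1 libraries lay below siControl and its siADAR1 #2 libraries above it, with a log2FC of -0.40 (SE 0.15, adjusted p-value 0.116), 0.15 (SE 0.15, adjusted p-value 0.505) and 0.55 (SE 0.15, adjusted p-value 0.0258). POLQ, the polymerase of theta-mediated end joining, had 10147 and 8747 normalized counts under siControl, 6317 and 6276 under siADAR1 #1 and 4262 and 4740 under siADAR1 #2. All siADAR1 libraries lay below siControl, with a log2FC of -0.58 (SE 0.12, adjusted p-value 0.0167) with siADAR1 #1 and -1.07 (SE 0.12, adjusted p-value 0.000929) with siADAR1 #2.

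In siControl, the median level per kb of the canonical transcript was 680 normalized counts for the members and 144 for the genes tested that have an annotated length. The levels ran from 98.5 for FANCM to 3489 for FANCI, followed by 2194 for UBE2T, 1965 for TOPBP1 and 1633 for NBN. With siADAR1 #2 these were 29.1, 1815, 840, 991 and 1831 in the same order, so that FANCI and NBN lay near each other. The median genomic span was 73.3 kb for the members and 22.9 kb for all genes, with a range from 3.29 kb for FANCF to 910 kb for RAD51B.

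Since long repair genes are known to depend on CDK12 and CDK13, the log2FC was set beside the span. With siADAR1 #1, the medians of the members were -0.28 under 30 kb, -0.46 from 30 to 60 kb, -0.36 from 60 to 100 kb and -0.62 over 100 kb, and for coding genes they were -0.02, -0.04, -0.05 and -0.19. In the same order, 1 of 11, 3 of 8, 4 of 12 and 6 of 12 members were called lower, and 11.7%, 12.4%, 14.7% and 19.99% of coding genes. With siADAR1 #2, the medians of the members were -0.76 under 30 kb, -1.13 from 30 to 60 kb, -0.97 from 60 to 100 kb and -0.85 over 100 kb, and for coding genes they were -0.03, -0.11, -0.15 and -0.09. Here 7 of 11, 5 of 8, 9 of 12 and 7 of 12 members were called lower, and 19.0%, 20.8%, 23.7% and 22.5% of coding genes. Across the 43 members, which share libraries and are not independent, Spearman's rho of span and log2FC was -0.23 with siADAR1 #1 and 0.02 with siADAR1 #2. Across 14274 coding genes it was -0.10 and -0.06. The kinase genes themselves were not called by RNA level. The study reports an editing event in the CDK13 transcript that changes an amino acid. It found this event in control Cal62 cells and not after ADAR1 silencing. Gene counts do not show editing, which was not measured here. CDK12 had 12139 and 11718 normalized counts under siControl, 13746 and 13004 under siADAR1 #1 and 11822 and 11314 under siADAR1 #2, with a log2FC of 0.16 (adjusted p-value 0.29) and -0.04 (adjusted p-value 0.775). CDK13 had 3289 and 3314 normalized counts under siControl, 2415 and 2682 under siADAR1 #1 and 3064 and 2929.5 under siADAR1 #2, with a log2FC of -0.38 (adjusted p-value 0.0596) and -0.14 (adjusted p-value 0.406). The log2FC of CCNK, which encodes cyclin K, was 0.19 (adjusted p-value 0.302) and 0.05 (adjusted p-value 0.804).

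**Figure D4:**
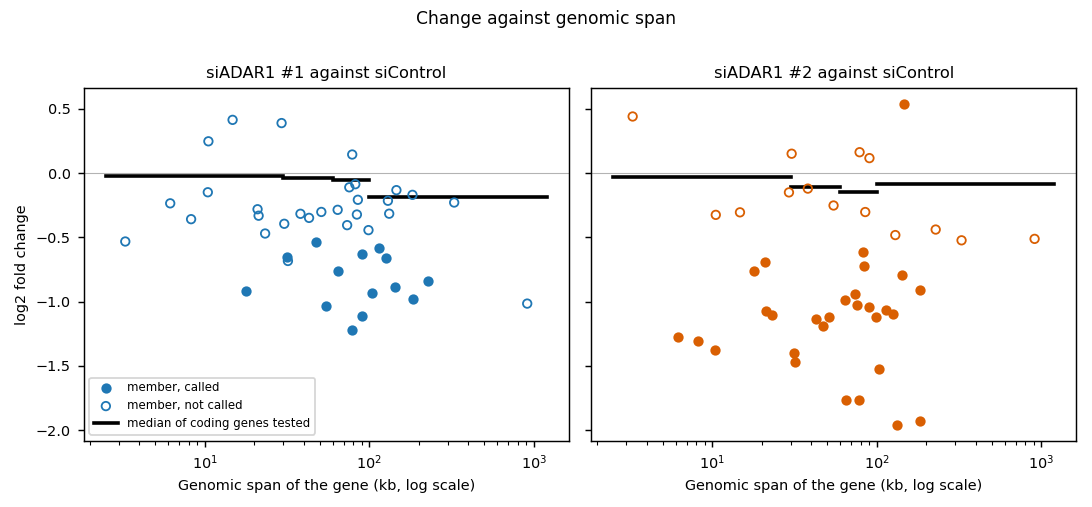
log2 fold change of each member (points, filled where called) against its genomic span in kb on a log scale, for siADAR1 #1 and siADAR1 #2 against siControl. Black lines are the medians of coding genes under 30, 30 to 60, 60 to 100 and over 100 kb; with siADAR1 #1 the member medians were -0.28, -0.46, -0.36 and -0.62 from the shortest to the longest of these bins.

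Other genes of the same pathways were taken from lists of textbook roles, and their counts stand beside the same 11.0% of all genes called lower and 6.39% higher with siADAR1 #1, and 16.0% and 11.6% with siADAR1 #2. Of 47 further homologous recombination and Fanconi anemia genes, 12 were called lower and 2 higher with siADAR1 #1, and 17 lower and 4 higher with siADAR1 #2, with a median log2FC of -0.26 and -0.30. The shares called lower in this list were 25.5% and 36.2%. The smallest adjusted p-values belonged to RPA2, a subunit of the protein that coats single-stranded DNA, to PARPBP, which binds PARP1, and to FIGNL1, an ATPase of recombination. RPA2 had 4466 and 4044 normalized counts under siControl, 3908 and 4044 under siADAR1 #1 and 1522 and 1516 under siADAR1 #2, with a log2FC of -0.10 (adjusted p-value 0.608) and -1.48 (SE 0.11, adjusted p-value 0.000386). PARPBP had a log2FC of -0.61 (SE 0.14, adjusted p-value 0.0222) with siADAR1 #1 and -1.53 (SE 0.14, adjusted p-value 0.000509) with siADAR1 #2, and FIGNL1 of -0.31 (adjusted p-value 0.112) and -1.06 (SE 0.12, adjusted p-value 0.000961).

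Of 19 further checkpoint and damage-signaling genes, 3 were called lower and 2 higher with siADAR1 #1, and 8 lower with siADAR1 #2, with a median log2FC of -0.19 and -0.43. The shares called lower were 15.8% and 42.1%. The smallest adjusted p-values belonged to CLSPN, the adaptor through which ATR activates CHEK1, to RHNO1, which acts in ATR activation, and to CDC25C, a phosphatase of entry into mitosis. CLSPN had 4717 and 4834 normalized counts under siControl, 3659 and 3930.5 under siADAR1 #1 and 1983 and 2168 under siADAR1 #2. Its log2FC was -0.33 (adjusted p-value 0.0833) with siADAR1 #1 and -1.20 (SE 0.11, adjusted p-value 0.000564) with siADAR1 #2, while RHNO1 had 0.11 (adjusted p-value 0.744) and -1.74 (SE 0.19, adjusted p-value 0.000854). CDC25C had -0.23 (adjusted p-value 0.463) and -1.66 (SE 0.20, adjusted p-value 0.00115). Of 12 genes of non-homologous end joining, the pathway that rejoins ends without a template, 1 was called higher with siADAR1 #1, and 2 were called lower and 1 higher with siADAR1 #2, with a median of -0.05 and -0.30. The share called lower with siADAR1 #2 was 16.7%, near that of all genes. XRCC4, a scaffold of DNA ligase IV, stood apart from every other gene of these lists, with 475 and 497 normalized counts under siControl, 329 and 406 under siADAR1 #1 and 6731 and 4867 under siADAR1 #2. Its log2FC was -0.41 (adjusted p-value 0.185) with siADAR1 #1 and 3.55 (SE 0.19, adjusted p-value 0.000336) with siADAR1 #2. NHEJ1, which aligns the ends with XRCC4, had 632 and 568 normalized counts under siControl, 816 and 698 under siADAR1 #1 and 230.2 and 221 under siADAR1 #2, and a log2FC of -1.40 (SE 0.17, adjusted p-value 0.00113) with siADAR1 #2. PRKDC, the catalytic subunit of the DNA-dependent protein kinase, had a log2FC of -0.44 (adjusted p-value 0.0199) and -0.40 (adjusted p-value 0.0178), under the threshold on size.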

How the data were processed

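Per the labels and the study's methods, the authors trimmed the reads, assigned them to genes with featureCounts or Salmon on GRCh38, and normalized them with DESeq2. The deposited values are variance-stabilized log2 values of 58333 genes in 6 libraries, with a lowest value of 0.348 shared by all libraries. Inverting this transform gave normalized counts and reads that were whole within 0.1 for 100% of values. Tool versions and the use of strand are not given in the sources used here. The depth, 30114840 to 50029763 reads, sets the counting precision, and intervals for it were not computed.

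Genes with a mean of at least 10 normalized counts (20247) were fitted with limma 3.58.1 (lmFit, eBayes with trend, residual degrees of freedom 3) on the log2 values, with all 6 libraries in 3 groups and Benjamini-Hochberg adjustment over all genes, and again with the 4 siADAR1 libraries as 1 group. All adjusted p-values are from limma, and the scripts were tested on simulated data. The deviations of same-numbered replicates correlated at 0.111, 0.130 and 0.150 between the groups over 20247 genes, which was taken as pairing by number, so the fit with the replicate number as a block was an alternative. The members, gene lists and tests were chosen with earlier results of these data known. The genes given full statistics were the members called with either siRNA, those called between the siRNAs with opposite signs against siControl, in role groups without a call the member nearest to 0, and at most 3 genes of each other list with the smallest adjusted p-values. The remaining 6 members were added so that all are accounted for. Alternatives were the filter (none, or 50 normalized counts), scaling (centring, quantile), no trend, voom on the recovered reads, correction for GC content and length, the block, the 4 libraries compared alone, and each library left out. Values of some listed genes are not reported here. Gene positions and spans are from GENCODE release 44.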

Additional observations from a re-analysis of the deposited data

Results flagged for a closer look

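For 7 of the 43 members the siRNAs differed from each other by limma's test while the log2FC against siControl had opposite signs. Both of those comparisons use the same siControl libraries. Over all genes tested, 16.5% were called lower and 17.3% higher between the siRNAs. How many of those had opposite signs was not counted, so the 7 members are not shown to be unusual. RAD50, an ATPase of broken ends, was higher with siADAR1 #2 than with siADAR1 #1 by 1.23 on the log2 scale, FANCF by 0.97, ATM by 0.67 and SLX4 by 0.55. The difference was -0.72 for FANCE, -0.57 for MUS81 and -0.54 for RAD51D, which were lower with siADAR1 #2. Among these 7, RAD50 was called with siADAR1 #1 and ATM with siADAR1 #2 against siControl, and the others were not called against siControl. RAD50, FANCF, FANCE, RAD51D, SLX4 and MUS81 each encode a part of a complex in which another member was called lower with siADAR1 #2. The cause of these differences was not tested.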

How the results depend on the processing

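The count of members called lower with siADAR1 #1 was 14, 3 without a trend, 17 with the replicate block, and 0 to 16 when single libraries were left out, while 11.0%, 4.42%, 12.6% and 0.766% to 12.4% of all genes were called lower. In the comparison of #1 with siControl the members called higher were 2 after centring (FANCE and RAD51D), 1 after quantile normalization and 1 with the GC and length trend removed (FANCE). Over all genes, 9.57%, 8.33% and 8.06% were called higher in the same fits. The median of the members was -0.22 after centring, -0.24 after quantile normalization and -0.45 to -0.31 when single libraries were left out. With siADAR1 #2, the members called higher were 2 after quantile normalization and 0 without a trend, while 13.3% and 9.80% of all genes were called higher. The median of the members was -0.82 after quantile normalization and -1.04 to -0.91 without single libraries. Between the siRNAs, 13 to 25 members were called lower and 3 to 7 higher without single libraries. Over all genes, 11.9% to 15.4% were called lower and 11.2% to 17.0% higher in the same fits. The median of the members was -0.65 to -0.45 in these fits, and -0.64 after centring. For the siADAR1 libraries as 1 group, the median was -0.59 after quantile normalization and -0.82 to -0.57 without single libraries, and the average of the siRNA changes gave 27 called lower. The fits without a library assume that a lone library varies like the other groups. The replicate block changed 3 calls among the members, those of RAD51B, RAD54L and FANCF with siADAR1 #1, and no other.

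Signs turned only for values that were not called. With siADAR1 #1, FANCL was 0.055 after centring, 0.045 after quantile normalization and 0.066 without the GC and length trend, FANCD2 and RPA2 were 0.031 and 0.046 after centring, and ATM was 0.0085 after centring and 0.019 without the GC and length trend. In the same comparison, leaving out single libraries gave -0.37 to 0.030 for FANCB, -0.20 to 0.025 for FANCL, -0.058 to 0.27 for RHNO1 and -0.53 to 0.020 for PAX8. With siADAR1 #2 and quantile normalization, PALB2 was 0.032, RAD51D 0.00038, CDK12 0.099 and CDK13 0.0094, and CDK12 was 0.023 without the GC and length trend. Between the siRNAs, NBN was -0.087, WRN -0.014 and PRKDC -0.063 after centring, XRCC3 was -0.062 and PRKDC -0.019 without the GC and length trend, and leaving out single libraries gave -0.098 to 0.13 for NBN, -0.077 to 1.08 for RAD51B and -0.054 to 0.76 for ADAR. The call of PARPBP with siADAR1 #1 was lost without siControl replicate 1, siControl replicate 2 or siADAR1 #1 replicate 1. Over the 43 members and 15 other named genes (58 in all) and these alternatives, 2412 values kept their direction and call, 140 lost and 32 gained a call, and 26 turned sign. Causes were not tested.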
